A study of Homo sapiens with 6 samples.

Results

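The integrin beta subunits ITGB1, ITGB3, ITGB4, ITGB5, ITGB7 and ITGB8, together with the associated proteins ITGB1BP1, ILK and PTK2, were followed in U87 cells, a human glioblastoma line, with and without a block of IRE1alpha, an endoplasmic reticulum stress sensor. These 9 genes were taken by name, and every probe set that listed 1 of them as its single gene symbol was kept, which gave 28 of 22215 probe sets. RNA of 6 samples was measured on 1 Affymetrix array each, in a search for genes tied to tumour invasion and vessel growth. In 3 samples, named IRE1dn, the cells were of the clone U87 IRE1.NCK DN and expressed a dominant negative IRE1alpha transgene. In the other 3, named ctrl, they were U87 clones carrying the empty plasmid. All had been grown for 16 h in DMEM with 10% serum and glutamine, with no other agent. The labels name 1 clone for IRE1dn and tie no clone to a ctrl array, so clone and transgene cannot be told apart. They give neither the promoter that drove the transgene nor whether arrays of a group came from separate cultures. P-values here measure the spread among these arrays only, and that spread could be technical.

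Integrins are receptors made of 1 alpha and 1 beta subunit that bind the extracellular matrix outside the cell and the actin cytoskeleton inside it. The beta subunit carries the short tail to which talin and kindlin bind when the receptor is activated. ITGB1BP1, also called ICAP-1, binds the tail of ITGB1 and is not a kinase. ILK is a pseudokinase that joins beta tails to actin through parvins and PINCH proteins, and PTK2, focal adhesion kinase (FAK), is the tyrosine kinase that signals from clustered integrins. In glioblastoma, integrins that contain ITGAV are known for their part in invasion and in vessel growth.

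Values are array signals in scaled units, with the same trimmed mean on every array, and a filter level of 13.0 units set which probe sets were tested. Correlations of log2 signals were 0.959 to 0.967 among ctrl arrays, 0.974 to 0.979 among IRE1dn arrays and 0.930 to 0.951 between groups. ERN1, which encodes IRE1alpha, measured 11.0, 14.0 and 11.9 units in ctrl and 9.89, 10.5 and 12.9 in IRE1dn cells, and whether its probe set reads the transgene is not known, so it is no check of the labels. The mesenchymal transcript VIM was at 2586 to 5122 units on all arrays and CD44 at 1450.4 to 1845, while the astrocyte markers GFAP and S100B stayed under 2 units. Of the 9 glioma and mesenchymal markers 4 were tested and 1 rose: CHI3L1, a marker of mesenchymal glioblastoma, from 802, 245 and 743 to 1632, 1462 and 1815 units, by 1.63 (adjusted p = 0.0099 by limma). OLIG2, a marker of oligodendrocyte lineage under the filter level, measured 15.1, 24.9 and 9.20 units in ctrl and 2.34, 3.45 and 4.46 in IRE1dn cells (limma adjusted p = 0.019 without the filter). The summed signal of the 9 was 4549.9 to 5405 units in ctrl and 6059.7 to 8827 in IRE1dn arrays, and its part in the results was not tested. VIM, CD44 and CHI3L1 made up most of that sum, and VIM and CD44 did not pass (limma adjusted p of 0.12 and 0.99). None of the 7 epithelial, 6 endothelial or 4 platelet markers measured had a mean above the filter level, and of 8 leukocyte markers only LCP1 did. The summed leukocyte signal was 30.4 to 88.3 units in ctrl and 71.5 to 87.3 in IRE1dn arrays.

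The beta subunits did not move together. ITGB1 and ITGB5 rose in IRE1dn cells, ITGB3 fell, and the 7 probe sets of ITGB4, ITGB7 and ITGB8 lay under the filter level. Of the associated proteins, PTK2 fell by a small step whose call depended on single arrays, and neither ILK nor ITGB1BP1 passed the threshold. In all, 12 of the 28 probe sets had a mean log2 signal above the level and were tested, and 3 rose and 5 fell (limma with Benjamini-Hochberg adjustment over 12069 probe sets, two-sided, threshold 0.05). Over all probe sets tested 31.2% were called, 17.0% higher and 14.2% lower. The median change of the 12 was -0.28 on the log2 scale, beside 0.03 over all probe sets tested. Groups did not overlap in 9 of the 12, beside 47.6% of all tested: IRE1dn lay above in 3 (25.7% of all) and below in 6 (21.9%). Over all 28 they were apart in 13, beside 33.5% of all 22215, with 4 above (18.4%) and 9 below (15.2%). In the fit without the filter 3 member probe sets rose and 3 fell, where 15.2% of all were called, 8.15% higher and 7.05% lower. Probe sets of 1 gene read the same transcripts and are not separate evidence. In bulk RNA, fewer cells that make a transcript and less transcript per cell cannot be told apart.

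**Figure D1:**
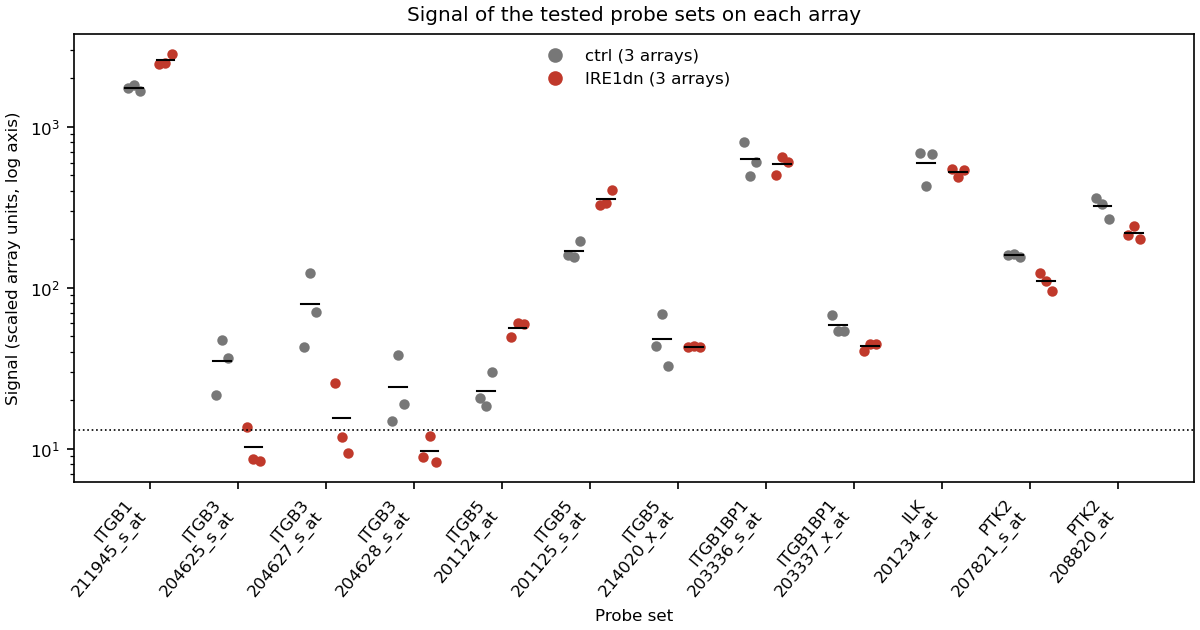
Signal of the 12 tested probe sets (x axis) on each array (y axis, scaled array units, log axis), with ctrl arrays in grey, IRE1dn arrays in red, short black lines for group means and a dotted line at the filter level of 13.0 units. The red points of ITGB1 and of 2 ITGB5 probe sets lie above all grey points, and those of the 3 ITGB3 and both PTK2 probe sets lie below them.

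ITGB1 is the beta subunit of most collagen, laminin and fibronectin receptors. Its probe set 211945_s_at measured 1743, 1819.8 and 1677 units in ctrl and 2446, 2489 and 2831 units in IRE1dn cells. Every IRE1dn array lay above every ctrl array. Means were 1747 ± 71.4 units in ctrl and 2589 ± 211 in IRE1dn cells (SD, n = 3 each), a ratio of 1.48. The change was 0.56 on the log2 scale (adjusted p = 0.0095 by limma, SE 0.13), larger than the spread within either group. The other 4 ITGB1 probe sets were dim, between 0.0374 and 12.7 units on all arrays, and their groups overlapped. Of those 4, 216178_x_at was the brightest, at 12.2, 10.6 and 12.7 units in ctrl and 9.14, 10.5 and 11.4 in IRE1dn cells. All 4 had the lower mean in IRE1dn cells, and in the fit without the filter none of them passed (log2 changes from -0.33 to -0.05, limma adjusted p of 0.60 to 0.94). The rise of ITGB1 therefore rests on 1 probe set.

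ITGB5 pairs with ITGAV to form a vitronectin receptor. Its brightest probe set, 201125_s_at, measured 159.9, 155 and 196 units in ctrl and 325, 335 and 404 units in IRE1dn cells. The groups were apart, with means of 170.3 ± 22.2 units in ctrl and 355 ± 42.7 in IRE1dn cells (SD, n = 3 each). That is a ratio of 2.08 and a rise of 1.05 on the log2 scale (adjusted p = 0.0025 by limma, SE 0.18). Of all probe sets tested, 85.7% had a smaller absolute change. Probe set 201124_at gave 20.7, 18.4 and 29.8 units in ctrl and 49.4, 59.97 and 59.3 in IRE1dn cells. It too had no overlap, with a ratio of means of 2.45 and a rise of 1.25 (adjusted p = 0.0049 by limma, SE 0.25).

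The 2 remaining ITGB5 probe sets were not called. Probe set 214020_x_at, whose suffix marks possible cross-hybridisation, measured 43.2, 69.1 and 32.4 units in ctrl and 42.6, 43.7 and 42.6 in IRE1dn cells. The IRE1dn values lay inside the ctrl range, and the log2 change was -0.09 (95% interval -0.71 to 0.52, adjusted p = 0.83 by limma). That interval does not reach the changes of 201125_s_at and 201124_at. Probe set 214021_x_at lay under the filter level, at 4.40 to 6.62 units in ctrl and 6.15 to 7.80 in IRE1dn cells. Its mean was higher in IRE1dn cells, with a log2 change of 0.27 in the fit without the filter (limma adjusted p = 0.67).

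ITGB1 and ITGB5 were the 2 members that rose, so the RefSeq sequences around their starts of transcription (GRCh38.p14) are shown, 250 bases before to 50 after the start. RefSeq gives 2 such windows for ITGB1 and 3 for ITGB5, from different starts. Each gene is shown by its window with the most copies of the GC box GGGCGG, the letters bound by SP1, searched on both strands, so the count of GC boxes in it is set by the choice. Both genes lie on the minus strand. The ITGB1 window is chr10:32958181-32958480 and the ITGB5 window chr3:124887316-124887615, each written 5′ to 3′ with the GC boxes of either strand in capitals.
ITGB1: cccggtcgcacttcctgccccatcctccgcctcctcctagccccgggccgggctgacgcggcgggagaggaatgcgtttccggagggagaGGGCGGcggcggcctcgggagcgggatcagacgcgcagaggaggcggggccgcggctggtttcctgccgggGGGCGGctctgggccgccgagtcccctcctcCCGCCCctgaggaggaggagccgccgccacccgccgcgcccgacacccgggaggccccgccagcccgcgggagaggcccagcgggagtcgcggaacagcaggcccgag
ITGB5: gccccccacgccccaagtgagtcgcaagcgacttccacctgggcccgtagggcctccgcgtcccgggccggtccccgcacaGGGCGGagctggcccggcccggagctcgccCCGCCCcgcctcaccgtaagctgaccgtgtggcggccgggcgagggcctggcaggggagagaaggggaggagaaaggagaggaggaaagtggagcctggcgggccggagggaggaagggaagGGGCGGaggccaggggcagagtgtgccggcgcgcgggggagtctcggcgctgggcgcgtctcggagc
Each printed window held 3 GC boxes, with a GC content of 78.3% for ITGB1 and 75.7% for ITGB5. The other ITGB1 window, which starts at position 32935509, held 0 GC boxes, 2 CCAAT boxes and 3 TATAAA boxes and had a GC content of 40.7%. The other 2 ITGB5 windows held 2 GC boxes each, at 49.7% and 59.7% GC. Over all 35116 windows of this length the median GC content was 58.7%. A GC box was in 45.0% of them, 3 or more GC boxes in 15.8%, CCAAT in 34.6% and TATAAA in 11.5%. None of the 5 windows held TGANTCA, the AP-1 site (in 7.71% of all windows), the hypoxia response core ACGTG (21.4%) or the CArG box of serum response factor (1.29%), and those of ITGB5 held neither CCAAT nor TATAAA. All motifs were searched on both strands, and in the printed windows no GC box overlapped another motif searched. Such a match describes letters and is not a binding site. Among members not called higher, the windows of ILK (73.0% GC) and ITGB8 (71.7%) held 2 GC boxes each. Those of ITGB1BP1 (63.0% and 61.0%) and ITGB7 (51.7%) held 0. ITGB3, ITGB4 and PTK2 had no entry.

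ITGB3 pairs with ITGAV, and in platelets with ITGA2B, and binds vitronectin, osteopontin and fibrinogen. It had the largest absolute change among the 12 tested probe sets, and it fell. Its brightest probe set, 204627_s_at, measured 43.0, 124 and 71.0 units in ctrl and 25.4, 11.8 and 9.43 units in IRE1dn cells. No IRE1dn array reached the lowest ctrl array, although the ctrl arrays themselves ranged widely, with array 2 the highest. Means were 79.3 ± 41.1 units in ctrl and 15.6 ± 8.62 in IRE1dn cells (SD, n = 3 each), so that IRE1dn cells had 19.6% of the ctrl signal. On the log2 scale the change was -2.21 (adjusted p = 0.0041 by limma, SE 0.42), and 97.8% of all probe sets tested had a smaller absolute change.

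Other ITGB3 probe sets moved the same way. Probe set 204625_s_at gave 21.7, 47.3 and 36.6 units in ctrl and 13.5, 8.58 and 8.40 in IRE1dn cells, a difference of -1.59 in log2 units (adjusted p = 0.0063 by limma, SE 0.33). Probe set 204628_s_at gave 14.9, 38.1 and 19.0 units in ctrl and 8.85, 11.9 and 8.29 in IRE1dn cells, a difference of -1.08 (adjusted p = 0.044 by limma, SE 0.36). Ctrl array 2 was the highest for each of these 3 probe sets, and no groups overlapped. The IRE1dn means of 204625_s_at and 204628_s_at lay under the filter level, so both were tested only through the ctrl arrays. The call of 204628_s_at ended without any single IRE1dn array (limma adjusted p of 0.071 to 0.13), and without ctrl array 2 this probe set lay under the filter. Those of 204625_s_at and 204627_s_at held without any single array. IRE1dn signals lay near or under the filter level, so the sizes depended on the pseudocount: with 16 units the changes were -1.54 for 204627_s_at, -0.94 for 204625_s_at and -0.60 for 204628_s_at, the last with a limma adjusted p of 0.051.

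The 4 ITGB3 probe sets under the filter level were also lower in mean. Probe set 215240_at measured 17.1, 11.5 and 13.9 units in ctrl and 3.01, 4.44 and 0.153 in IRE1dn cells. Probe set 216261_at measured 13.1, 15.8 and 19.3 units against 3.60, 4.70 and 10.5, and 204626_s_at measured 13.0, 22.6 and 17.1 units against 9.57, 11.4 and 1.52. In these 3 the groups did not overlap, and in the fit without the filter 215240_at fell (-2.04, limma adjusted p = 0.022) while the others did not pass (0.081 and 0.16). In 211579_at the groups overlapped, at 2.29 to 7.41 units in ctrl and 0.421 to 4.88 in IRE1dn cells. Thus 6 of 7 ITGB3 probe sets lay wholly lower in IRE1dn cells, beside 15.2% of all 22215 probe sets.

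**Figure D2:**
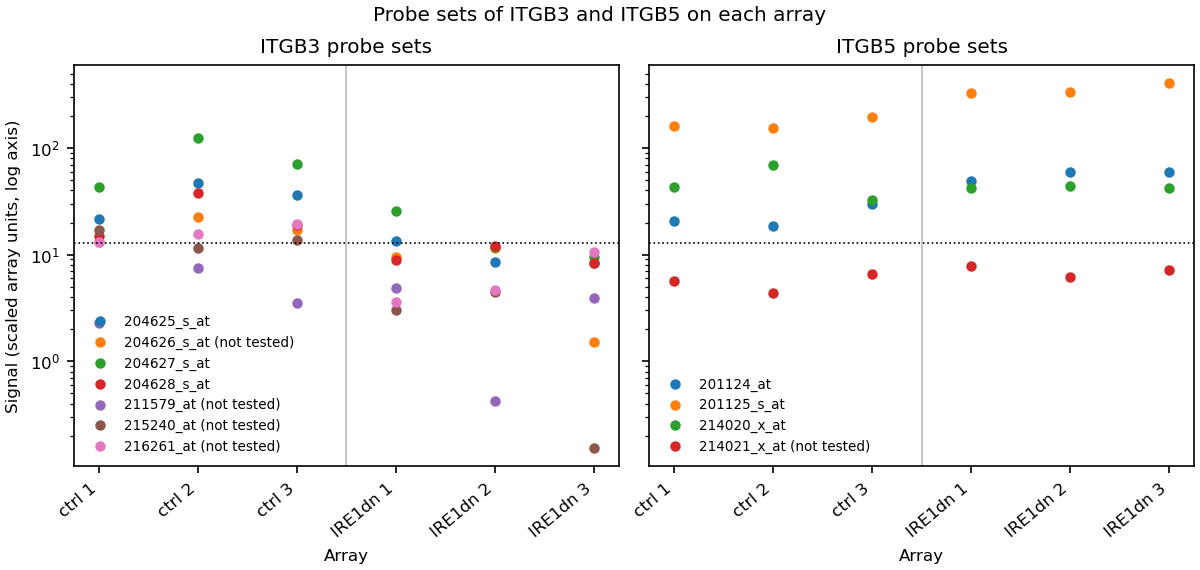
Signal of the 7 ITGB3 (left) and 4 ITGB5 (right) probe sets on each of the 6 arrays (x axis), in scaled array units on a log axis, 1 colour per probe set, with the filter level of 13.0 units dotted. All ITGB3 probe sets but 211579_at are lower on every IRE1dn array than on any ctrl array, and of ITGB5 the probe sets 201124_at and 201125_s_at are higher while 214020_x_at lies at 42.6 to 43.7 units in IRE1dn cells.

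ITGB8 pairs with ITGAV and is known for releasing active TGF-beta from its latent complex. Both of its probe sets lay under the filter level and were higher in mean in IRE1dn cells. Probe set 211488_s_at measured 6.63, 3.50 and 6.73 units in ctrl and 9.98, 9.79 and 9.63 in IRE1dn cells, without overlap. Probe set 205816_at measured 0.474, 3.76 and 0.939 units against 2.62, 6.49 and 5.77, with overlap. In the fit without the filter neither passed (log2 changes of 0.68 and 1.01, limma adjusted p of 0.27 and 0.16).

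ITGB4, the partner of ITGA6 in the hemidesmosomes of epithelia, was dim in all 4 probe sets, between 0.436 and 9.25 units on all arrays, with groups that overlapped. Its brightest, 211905_s_at, measured 9.25, 5.36 and 5.05 units in ctrl and 7.39, 1.94 and 3.69 in IRE1dn cells. The other 3 had the higher mean in IRE1dn cells, and none of the 4 passed without the filter (limma adjusted p of 0.50 to 0.95). ITGB7, the beta subunit of lymphocyte homing receptors, measured 1.44, 0.703 and 1.69 units in ctrl and 1.16, 1.93 and 2.75 in IRE1dn cells. Its single probe set overlapped between groups and did not pass without the filter either (limma adjusted p = 0.61). The leukocyte subunit ITGB2, no member, was under 2 units on all arrays.

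PTK2 was lower in IRE1dn cells in both of its probe sets. Probe set 208820_at measured 363, 331 and 268 units in ctrl and 214, 242 and 202 in IRE1dn cells. Probe set 207821_s_at measured 160.5, 161 and 156 units against 124, 111 and 95.3. The groups were apart in both, and IRE1dn means were 68.3% of ctrl for the former and 68.9% for the latter. Changes on the log2 scale were -0.54 for 208820_at (adjusted p = 0.045 by limma, SE 0.18) and -0.54 for 207821_s_at (adjusted p = 0.046 by limma, SE 0.18). These calls sat close to the threshold. That of 207821_s_at ended without any single array (limma adjusted p of 0.056 to 0.18), and that of 208820_at ended without any single array except ctrl array 3 (0.090 to 0.16, against 0.018 without ctrl array 3). In the fit without the filter neither passed (limma adjusted p of 0.059 and 0.056). The size stayed between -0.66 and -0.44 for the 2 probe sets in all settings run.

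ILK measured 686, 426 and 679 units in ctrl and 547, 488 and 541 in IRE1dn cells. Ctrl array 2 was the lowest of all and the other 2 ctrl arrays the highest, so the groups overlapped. The log2 change was -0.15 (95% interval -0.60 to 0.30, adjusted p = 0.60 by limma). ITGB1BP1 in its bright probe set 203336_s_at measured 803, 493 and 607 units in ctrl and 498, 654 and 604 in IRE1dn cells. These groups overlapped as well, with a log2 change of -0.10 (95% interval -0.55 to 0.36, adjusted p = 0.75 by limma). Its other probe set, 203337_x_at, measured 67.3, 53.6 and 54.1 units against 40.5, 44.6 and 44.5. There the groups were apart, but the change of -0.41 did not pass (95% interval -0.87 to 0.05, adjusted p = 0.16 by limma).

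**Figure D3:**
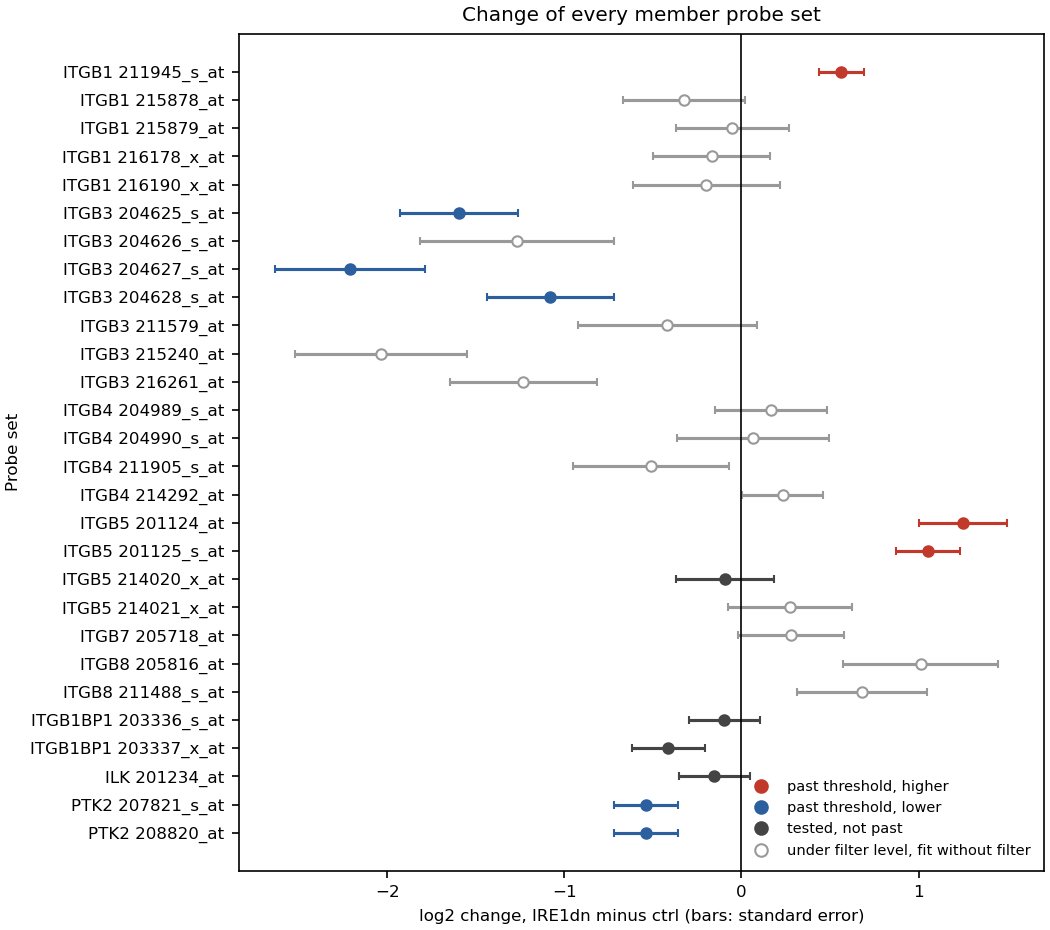
Log2 change, IRE1dn minus ctrl, of all 28 probe sets with standard errors. Red marks the 3 that rose, blue the 5 that fell, dark grey the 4 tested that did not pass, and open points the 16 under the filter level, taken from the fit without the filter. ITGB3 lies on the left, the 2 ITGB5 probe sets that rose and the bright ITGB1 probe set on the right, and ILK and ITGB1BP1 203336_s_at near 0.

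**Figure D4:**
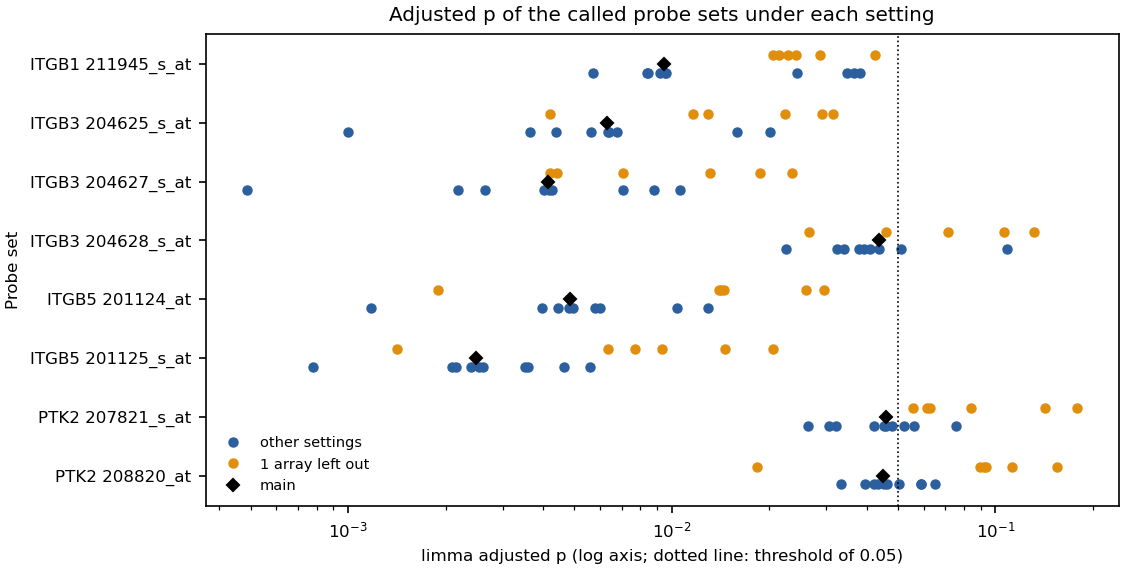
Limma adjusted p (x axis, log scale) of the 8 called probe sets, with the main value as a black diamond, fits without 1 array in orange and other settings in blue, and the threshold of 0.05 dotted. The ITGB1 probe set, 2 ITGB3 and 2 ITGB5 probe sets stay left of the line under all settings that tested them, while 204628_s_at of ITGB3 and both PTK2 probe sets cross it.

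At 1 probe set per gene, the brightest, 6 of the 9 genes were tested, and ITGB1 and ITGB5 rose while ITGB3 and PTK2 fell. Over all 7178 genes tested 34.4% were called, 17.9% higher and 16.5% lower. Groups were apart in 4 of the 6 genes, beside 50.2% of all tested, with 2 above (26.0%) and 2 below (24.2%). By the root mean square difference of centred log2 values over the 6 arrays, the genes most like ITGB1 were MRE11 (0.04), CHD9 (0.06) and MAPRE1 (0.06). Those most like ITGB5 were STAC (0.02), IPO9 (0.07) and TMCO6 (0.08). For PTK2 they were TXN (0.06), DNAJA1 (0.07) and PSMG1 (0.07). ITGB3 had no such close match, with PHLDA2 (0.33), RRP9 (0.40) and HDAC9 (0.45) nearest.

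A beta subunit reaches the surface only with an alpha subunit. Of 18 alpha subunits, 16 were measured and 8 tested, of which 2 rose (17.9% of all genes tested did) and 2 fell (16.5%). Their median change was 0.23 on the log2 scale, beside 0.01 over all genes tested. ITGAV, the partner of ITGB3, ITGB5 and ITGB8, rose from 431, 323 and 364 units in ctrl to 627, 604 and 663 in IRE1dn cells, by 0.77 (adjusted p = 0.0062 by limma, SE 0.16). It therefore rose beside ITGB5 and against ITGB3. ITGA6, the laminin receptor subunit that pairs with ITGB1 or ITGB4, rose from 4.99, 21.3 and 6.02 to 46.4, 42.8 and 42.1 units, by 2.10 (adjusted p = 0.0055 by limma, SE 0.43), and both of its probe sets rose.

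ITGA2, the collagen receptor subunit that pairs with ITGB1, fell from 29.0, 56.7 and 77.2 units to 6.76, 8.82 and 16.9, by 2.14 (adjusted p = 0.0039 by limma, SE 0.40). ITGA7, a laminin receptor subunit and also a partner of ITGB1, fell from 57.3, 51.5 and 153 units to 12.0, 0.717 and 16.8 in its brighter probe set, a change of -3.20 (adjusted p = 0.0074 by limma, SE 0.70) that was -2.30 without IRE1dn array 2. Both ITGA7 probe sets fell. ITGA6 in ctrl and ITGA2 and ITGA7 in IRE1dn cells had a mean log2 signal under the filter level, so each was tested only through the group where it was high, and the sizes are imprecise. ITGA3 and ITGA5, further partners of ITGB1 for laminin and fibronectin, did not pass, with log2 changes of 0.37 (adjusted p = 0.21 by limma) and 0.35 (adjusted p = 0.18 by limma). ITGA2B, the platelet partner of ITGB3, was at 1.06 to 7.07 units on all arrays. ITGA4, a partner of ITGB7, measured 6.15 to 16.5 units in ctrl and 4.33 to 7.82 in IRE1dn cells and was not tested.

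**Figure D5:**
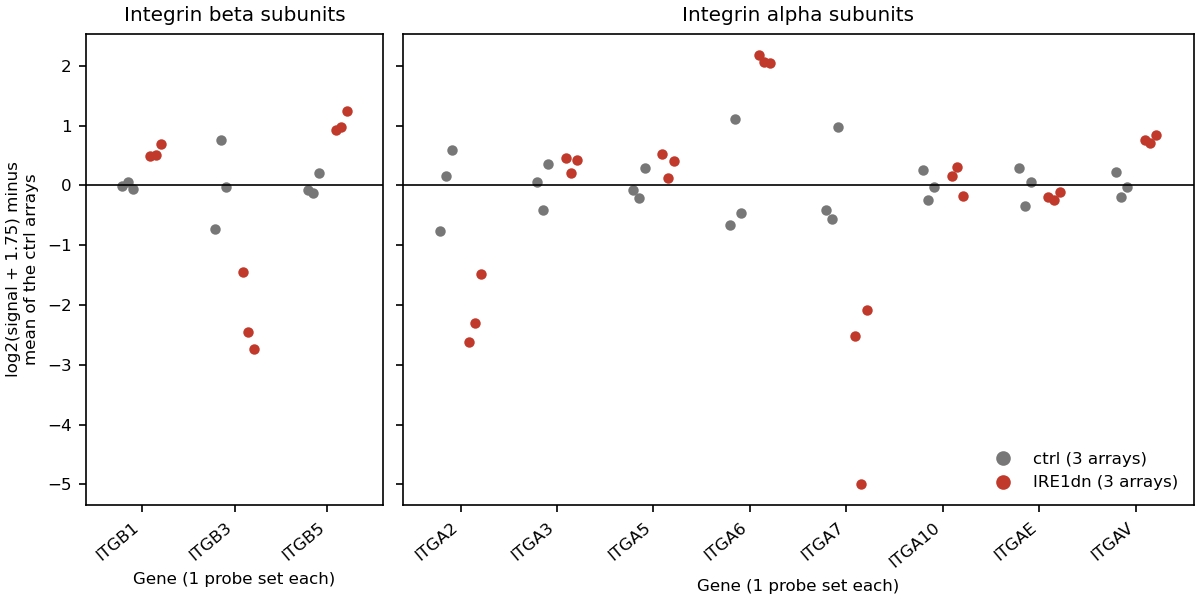
Log2(signal + 1.75) of each tested beta (left) and alpha (right) subunit on each array, 1 probe set per gene, minus the mean of the ctrl arrays, with ctrl arrays in grey and IRE1dn arrays in red. ITGB1, ITGB5, ITGAV and ITGA6 lie higher in IRE1dn cells and ITGB3, ITGA2 and ITGA7 lower.

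Proteins that bind beta tails or regulate integrin activation were mixed. Of 18 listed, 12 were measured and 10 tested, of which 2 rose and 2 fell, a share near the 34.4% called over all genes, and the median change was -0.15. The talins, which switch integrins on, rose, TLN1 by 0.93 (adjusted p = 0.040 by limma, SE 0.31) and TLN2 by 1.04 (adjusted p = 0.018 by limma, SE 0.28). CIB1, a calcium-binding protein of the ITGA2B tail, fell by 0.86 (adjusted p = 0.0027 by limma, SE 0.15). SHARPIN, an inhibitor of integrin activation, fell by 1.03 (adjusted p = 0.037 by limma, SE 0.33). The kindlin FERMT2 measured 478, 442 and 214 units in ctrl and 597, 577 and 637 in IRE1dn cells, apart but not past the threshold (0.76, adjusted p = 0.058 by limma). Single arrays decided the talin and SHARPIN calls: without IRE1dn array 2 or 3 no gene of this list rose and 1 fell, and 1 rose without IRE1dn array 1 or ctrl array 3. The TLN1 and SHARPIN calls also ended without ctrl array 1 and in the fit without the filter (limma adjusted p of 0.072 and 0.081). TLN2 had a ctrl mean under the filter level.

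Of 6 tested partners of ILK 2 rose and 1 fell, beside 17.9% and 16.5% of all genes, with a median change of 0.04. PARVA, the parvin that links ILK to actin, rose from 124, 105 and 118 units to 294, 326 and 327, by 1.44 (adjusted p = 0.00032 by limma, SE 0.16). NCK2, an adaptor bound by PINCH, rose by 1.22 (adjusted p = 0.0064 by limma, SE 0.26). ILKAP, a phosphatase that binds ILK, fell by 0.67 (adjusted p = 0.015 by limma, SE 0.17), a call that ended without IRE1dn array 2 or 3. PARVB did not pass (-0.29, adjusted p = 0.39 by limma).

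The tested signalling partners of FAK that passed the threshold all rose. Of 26 partners, 24 were measured and 20 tested, of which 5 rose and 0 fell in limma (7 and 1 at an unadjusted p under 0.05), beside 34.4% of all genes called and 17.9% higher. Their median change was 0.08. ARHGEF28, a guanine exchange factor that binds FAK, rose by 1.37 (adjusted p = 0.020 by limma, SE 0.38). The PI3-kinase subunit PIK3R1 rose by 1.18 (adjusted p = 0.011 by limma, SE 0.28) and the Arf regulator ASAP1 by 1.15 (adjusted p = 0.0047 by limma, SE 0.23). All 3 PIK3R1 probe sets were tested and higher in mean, but only 1 passed. The PIK3R1 call ended without IRE1dn array 2 (limma adjusted p = 0.055). The paxillin relative TGFB1I1 rose by 0.89 (adjusted p = 0.0049 by limma, SE 0.18). The count was 3 without IRE1dn array 1 or 3 and 2 without IRE1dn array 2, and the ARHGEF28 call ended without any of them. The FAK-binding scaffold NEDD9, chosen once its values were seen and with a mean log2 signal below the filter level, measured 0.0764, 0.0429 and 1.17 units in ctrl and 77.6, 62.7 and 66.7 in IRE1dn cells. The FAK relative PTK2B, chosen likewise, was dim in both groups, at 5.84 to 12.0 units in ctrl and 0.646 to 2.17 in IRE1dn cells. In the fit without the filter 6 partners rose and 1 fell. There NEDD9 rose (5.05, limma adjusted p = 5.5e-05) and PTK2B fell (-1.74, limma adjusted p = 0.012).

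Structural proteins of focal adhesions, the sites where integrins hold actin, were tested in 19 genes, of which 11 rose and 1 fell, beside 17.9% of all genes higher and 16.5% lower. The count that rose was 8 without the filter, 9 with either other scaling and 6 to 9 without 1 array, lowest without IRE1dn array 2. Their median change was 0.65. LPP, a zyxin relative, rose by 1.61 (adjusted p = 0.0031 by limma, SE 0.29) and the actin crosslinker ACTN1 by 1.24 (adjusted p = 0.0036 by limma, SE 0.23). Of the 3 LPP probe sets, all tested, 2 rose, and 1 had the lower mean in IRE1dn cells and did not pass. CSRP1, a LIM protein, rose by 1.17 (adjusted p = 0.00082 by limma, SE 0.16). TNS1, a tensin that binds beta tails, rose by 1.48 (adjusted p = 0.040 by limma, SE 0.49), but when 1 array was left out this call held only without ctrl array 3, at 2.07, and its ctrl mean lay under the filter level. All 5 TNS1 probe sets were higher in mean, but of the 2 tested only 1 passed. The 1 that fell was TRIP6, another zyxin relative, chosen once its value was seen, by 0.62 (adjusted p = 0.023 by limma, SE 0.18); this call ended without ctrl array 2 or IRE1dn array 2 or 3.

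Of 21 matrix ligands of integrins tested, 16 rose and 1 fell, beside 17.9% and 16.5% of all genes, with a median change of 1.17. The 1 that fell was SPP1, osteopontin, a ligand of receptors with ITGB3, from 1430.3, 1648 and 942 units in ctrl to 200.1, 205 and 198 in IRE1dn cells, by 2.69 (adjusted p = 4.1e-05 by limma, SE 0.21). THBS1, a thrombospondin, measured 2.84, 4.96 and 18.6 units in ctrl and 281, 226 and 257 in IRE1dn cells, and the fibrillar collagen COL3A1 6.01, 4.06 and 3.88 against 43.7, 51.6 and 46.9. Both rose (limma adjusted p of 0.00014 and 0.00012), but their ctrl means lay under the filter level, so they were tested only through the IRE1dn arrays and their fitted changes of 4.90 and 2.95 are imprecise. COL1A1, another fibrillar collagen, rose by 3.94 (adjusted p = 0.00052 by limma, SE 0.50). Without any single IRE1dn array COL3A1 lay under the filter. THBS1 was at 5.52 without ctrl array 3, and COL1A1 at 4.59 without ctrl array 1 and 3.33 without ctrl array 2.

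Integrins with ITGAV release TGF-beta from its latent form. Of 9 tested genes listed with that system 3 rose and 1 fell, beside 17.9% and 16.5% of all genes, and their median change was 0.39. The ligand TGFB2 rose by 1.76 (adjusted p = 0.0023 by limma, SE 0.30) and the receptor TGFBR2 by 0.98 (adjusted p = 0.0027 by limma, SE 0.17). LTBP2, listed by its family name only, rose by 0.82 (adjusted p = 0.0099 by limma, SE 0.19), a call that ended without IRE1dn array 2 or 3. LTBP1, of the same family, fell by 1.19 (adjusted p = 0.0084 by limma, SE 0.27). In this list 2 genes fell without ctrl array 2 or IRE1dn array 1.

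Of the hemidesmosome list, where ITGB4 acts, 5 genes were tested, and 3 rose and 0 fell, beside 17.9% and 16.5% of all genes (3 and 0 also at an unadjusted p under 0.05 in limma). They were ITGA6, given above, and the plakins DST, by 1.96 (adjusted p = 0.00048 by limma, SE 0.24), and PLEC, by 1.20 (adjusted p = 0.016 by limma, SE 0.31). The PLEC call ended without IRE1dn array 1 or 3. The keratins KRT5 and KRT14, markers of epithelia with hemidesmosomes, were under 8 units on all arrays.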

How the data were processed

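Expression was measured on 6 arrays, 3 per group. The authors deposited linear signal intensities, 22277 probe sets per array. Per the submitters' processing notes GCOS 1.2 was used; for the summarisation, background step and build the sources used here give nothing. The deposited intensities were scaled, with a mean of 100.0 on each array after trimming 2% at each end, so a change shared by all transcripts would not be seen. The number of arrays limits precision. Gene names came from the platform annotation: 19064 probe sets had 1 symbol (19052 matched RefSeq GRCh38.p14), 1043 several, 2108 none, and 62 were controls. Intensities were set to log2(signal + 1.75), the pseudocount being the 20th percentile of all values, so that changes of dim genes are understated. Probe sets whose mean log2 signal exceeded the 40th percentile of 11963 genes (13.0 units) were tested: 12069 probe sets, and 7178 genes at their brightest probe set. Limma 3.58.1 in R 4.3.3 (intensity trend, no covariate, two-sided, Benjamini-Hochberg over all tested, 0.05) gave every adjusted p and 95% interval; the script was tested on simulated data. An exact permutation test of 3 against 3 cannot go below 0.1 and was not used.

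The named genes are all members with every probe set, up to 4 changed genes of each list with the largest changes and no overlap, and the 3 genes most like each changed member. Some direct partners, changed or not, were named as well, but not all. Members and lists were chosen with earlier results of these data known, and lists overlap. List genes without a probe set of 1 symbol were not analysed here. Alternatives were other pseudocounts, filters, scalings, variance models, array weights, the replicate block, the mean of a gene's probe sets, and each array left out.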

Additional observations from a re-analysis of the deposited data

How the results depend on the processing

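With the mean of all probe sets of a gene, 1 member gene rose and 1 fell, because ITGB1 and ITGB3 then lay under the filter; in all other settings run the counts of members that rose were within 1.5 times of the main ones. In the main fit 5 member probe sets fell. With no filter 3 fell, namely 204625_s_at, 204627_s_at and 215240_at of ITGB3, the last of them not tested in the main fit. Without the intensity trend 3 fell, and with the 60th percentile filter, where ITGB3 was not tested, 2 fell. Of 2 member genes that fell, 1 fell without the trend and 1 with that filter. Without 1 array, 2 to 4 member probe sets and 1 to 2 member genes fell, and over all probe sets 1118 to 2171 rose and 973 to 1769 fell, over all genes 739 to 1416 and 707 to 1255, each lowest without IRE1dn array 2. The change of ITGB1BP1 203336_s_at turned to 0.0890 with array weights (0.0811 in the gene fit) and ranged from -0.263 to 0.0881 without 1 array in both fits; that of ITGB5 214020_x_at ranged from -0.335 to 0.191, and none of these passed. The cause was not tested. Arrays of the 2 groups that share a replicate number deviated from their group means with correlations of -0.134, 0.0549 and 0.00915. Arrays with unlike numbers gave -0.108 to 0.0815. No sign of pairing by number was seen, but 3 arrays per group cannot exclude it. With the replicate number as a block 3 member probe sets and 1 member gene fell, as the PTK2 calls ended (limma adjusted p of 0.076, 0.059 and, in the gene fit, 0.051); the block changed no other call of a member. Signals under the filter level limit what can be said of ITGB4, ITGB7, ITGB8 and the lower ITGB3 values.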
